A study of Mus musculus with 6 samples.

Results

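The mRNAs described here are 6 that serve fertilization and egg activation: the tetraspanins *Cd9* and *Cd81* of the egg surface, the proteases *Astl* and *Plat*, and *Itpr1* and *Rgs2* of the calcium response. They were picked by name and function, and all 6 were found among the 25899 genes of the deposited table. A fertilized egg needs a surface that the sperm can bind and fuse with, and CD9 in the egg membrane is known to be required for efficient fusion, with CD81 as a related tetraspanin. Fusion starts a series of calcium rises, released from the endoplasmic reticulum through the inositol trisphosphate receptor ITPR1, while RGS2 is known to damp G protein signals that could release calcium too early. The calcium rises empty the cortical granules, whose protease ovastacin, the product of *Astl*, cleaves the zona pellucida glycoprotein ZP2 and so blocks further sperm. Tissue-type plasminogen activator, the product of *Plat*, is also made by eggs, and its stored mRNA is a classical case of an mRNA translated when meiosis resumes.

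The samples were oocytes of aged female (AF) CD1 mice, 58 weeks old by the sample labels, while the methods of the study name the strain ICR and give a somewhat lower age. Mice received 5 IU of pregnant mare serum gonadotropin, and 46 h later fully grown oocytes were collected in 100 µM IBMX, which holds them in meiotic arrest. They were denuded, cultured for 180 min without IBMX so that the nuclear envelope broke down (NEBD), and given 0.1 mg/ml cycloheximide for 10 min to keep ribosomes on the mRNA. Each lysate of 200 oocytes was separated on a sucrose gradient, and its fractions were pooled into a non-polysomal part (NP, free mRNA and single ribosomes) and a polysomal part (P, mRNA with several ribosomes), which gave 3 NP and 3 P libraries. There is no untreated or unfractionated control among these libraries, oocytes of young females were not analysed here, and nothing in the labels says whether the replicates came from separate groups of mice, so p-values measure the spread between these libraries.

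Values are FPKM, which divide the fragments of an mRNA by its exon length and by the mapped fragments of the library, so that mRNAs of different length share one scale within a library. The depth recovered from the steps between low values was 1237799 to 18096676 reads in NP and 163822 to 1549317 reads in P, and AF P replicate 1 was the shallowest library. Of 10 oocyte marker mRNAs, all were listed above 0 in every P library, and their summed level was 10790 to 13753 FPKM in NP and 4489 to 13424 FPKM in P. Of 14 granulosa and cumulus cell markers, 9 were listed at 0 in all 6 libraries, among them *Fshr*, *Amh* and *Foxl2*, and the list summed to 11.2 to 131 FPKM in NP and 1.18 to 16.5 FPKM in P. Of 10 blood and immune markers, 9 were listed at 0 throughout. In pooled oocytes, fewer cells with an mRNA and less of it per cell cannot be told apart. For the 10578 genes with a mean above 1 FPKM in P or NP, which were tested, P over NP had a median of -1.03 on the log2 scale, so a value near -1.03 is that of a typical gene. Libraries of equal number in P and NP are set side by side where counts out of 3 are given, although no source says that they share a gradient. Each lysate gave both an NP and a P library, but the main fit and the exact tests treated all libraries as independent. The smallest exact p of 0.1 holds only under that treatment.

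The 6 mRNAs spanned a wide range of levels. In NP the order from high to low was *Plat*, *Astl*, *Rgs2*, *Itpr1*, *Cd9* and *Cd81*. *Plat* lay above *Astl*, *Astl* above *Rgs2*, and *Cd9* above *Cd81* without overlap of their NP ranges. The NP ranges of *Rgs2*, *Itpr1* and *Cd9* overlapped, although *Rgs2* was above *Itpr1* in 3 of 3 NP libraries, and *Itpr1* above *Cd9* in 2 of 3. In P the order was *Plat*, *Astl*, *Itpr1*, *Rgs2*, *Cd9* and *Cd81*, and every pair of neighbours overlapped in range. *Plat* was above *Astl* in 3 of 3 P libraries, and *Itpr1* above *Rgs2* in 2 of 3. In all 3 P libraries 4 of the 6 mRNAs were listed above 0, the exceptions being *Cd9* and *Cd81*. Among all genes tested, 44.0% were above 0 in all P libraries and 42.8% in all 6.

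**Figure D1:**
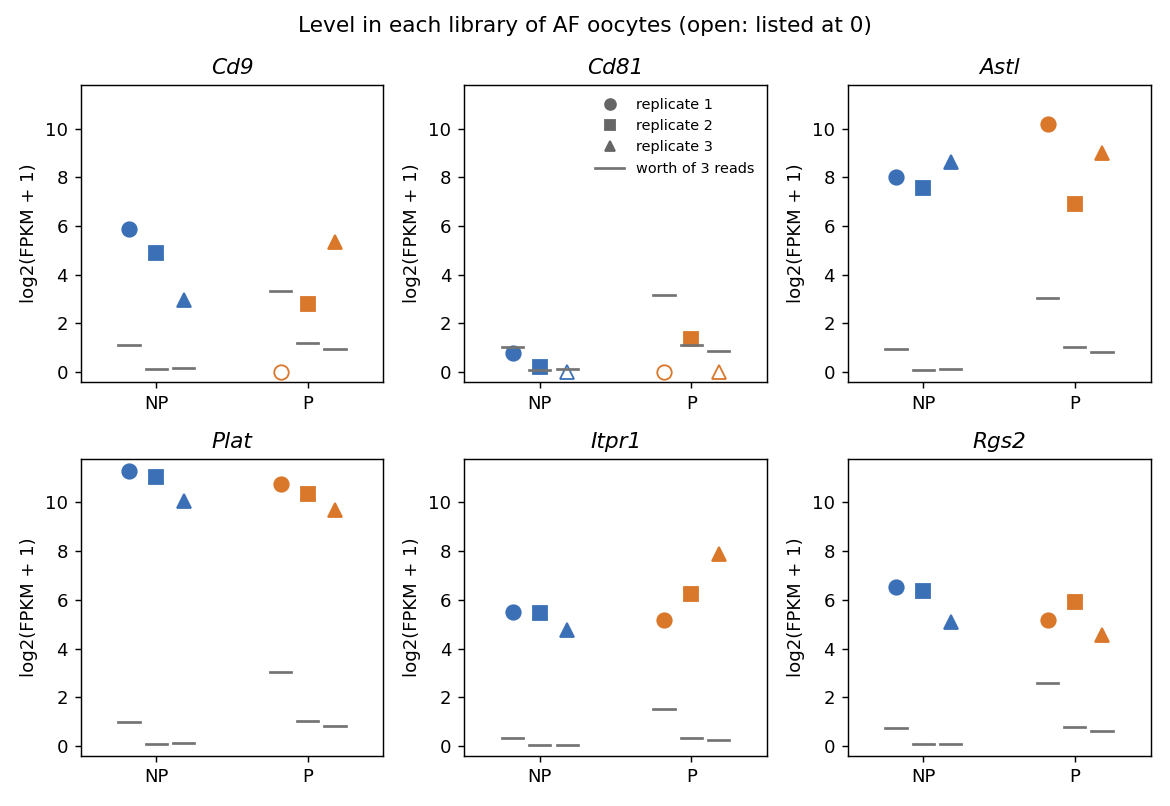
Level of each of the 6 mRNAs in each library, as log2(FPKM + 1), for NP (blue) and P (orange), with 1 symbol per replicate. Grey dashes mark what 3 recovered reads are worth, and open symbols are values listed at 0; *Plat* and *Astl* lie far above the dashes in all 6 libraries, while *Cd81* lies close to them or at 0.

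*Cd9*, on the minus strand of chromosome 6 from 125460266 to 125494791 (GRCm38), spread widely between replicates of both fractions. The 3 AF NP libraries held 57.3, 28.6 and 6.86 FPKM, which are 145, 1059 and 170 recovered reads. The AF P libraries held 6.0 FPKM in replicate 2 and 39.8 FPKM in replicate 3, which are 14 and 126 reads, while replicate 1 was listed at 0. The highest value was in NP and the lowest in P, and the fractions overlapped. For *Cd9*, 3 reads in the shallow AF P replicate 1 equal 8.96 FPKM, so the 0 there allows a level above that of replicate 2. AF P replicate 3 held 86.9% of the summed P level, and the P mean without it was 3.00 FPKM. On the log2 scale P over NP was -1.86 (standard error 1.33, 95% interval -4.61 to 0.89, limma adjusted p = 0.471), with P lower in 2 of 3 replicates. This ratio includes a value listed at 0 and depends on the pseudocount, at -2.96 with 0.1 and -1.11 with 5. After median-of-ratios scaling and quantile normalization it was -0.93 and -1.23. Leaving out AF P replicate 1 gave -0.50, leaving out replicate 3 of P gave -3.17, and leaving out NP replicate 1 gave -1.21.

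*Cd81*, on the plus strand of chromosome 7 from 143052739 to 143067934, was barely detected. Its NP values were 0.712 and 0.170 FPKM in replicates 1 and 2, or 2 and 7 recovered reads. Replicate 3 of NP had it listed at 0, where 3 reads equal 0.109 FPKM. Only replicate 2 of P had a value, 1.54 FPKM or 4 reads, and in the zeros of P replicates 1 and 3 a level of 8.07 and 0.853 FPKM could go unseen. Such limits hold for counting error alone, as reads were amplified without molecular tags. No library held more than 7 reads, and a P level below these limits could not be told from that of NP. With means of at most 1 FPKM in both fractions it was the only one of the 6 mRNAs left out of the test. In the NP libraries the tetraspanins differed without overlap, with *Cd81* minus *Cd9* at -5.09, -4.66 and -2.97 in log2(FPKM + 1). In P the difference was -1.46 and -5.35 in replicates 2 and 3, and in replicate 1 both were listed at 0.

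Of 16 other genes of the gamete surface (the sperm receptor, integrins, further tetraspanins and partners of CD9), 10 could be tested and 0 passed the threshold in limma, with 1 at an unadjusted p under 0.05. Of all genes tested, 1.82% passed and 15.8% had an unadjusted p under 0.05. The median log2 ratio of the list was -0.87, beside -1.03 for all genes. *Tspan14*, a tetraspanin and the most abundant of the list by its mean over the 6 libraries, had 254, 219 and 110 FPKM in NP and 128, 188 and 380 FPKM in P, with overlapping ranges. *Izumo1r*, listed as *Folr4*, encodes JUNO, the egg receptor of the sperm protein IZUMO1, and was named after its values were seen. It had 281, 253 and 344 FPKM in NP and 68.4, 61.2 and 58.7 FPKM in P, so every P library lay below every NP library, which held for 23.2% of all genes. In NP it was above *Tspan14* in 3 of 3 libraries. Its log2 ratio was -2.20 (standard error 0.74, limma adjusted p = 0.162). *Cd9*, at 6.86 to 57.3 FPKM in NP, lay below this receptor in every NP library.

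*Astl*, on the plus strand of chromosome 2 from 127338639 to 127357651, was an abundant mRNA in both fractions, and its P libraries disagreed among themselves. The AF NP libraries held 257.5, 190.3 and 391.7 FPKM, or 816, 8818 and 12164 recovered reads, with a mean of 279.8 ± 102.5 (SD, n = 3). The AF P libraries held 1180.3, 118 and 508 FPKM, or 495, 345 and 2014 reads, with a mean of 602 ± 537 (SD, n = 3). The P libraries thus held both the highest and the lowest value of the 6, and spanned 10.0-fold, against 2.06-fold in NP. On the log2 scale P over NP was 0.63 (standard error 0.75, 95% interval -0.93 to 2.19, limma adjusted p = 0.653), higher in P in 2 of 3 replicates. It turned to -0.13 without AF P replicate 1 and was 1.53 without AF P replicate 2. After median-of-ratios scaling and quantile normalization it was 1.62 and 1.55, and set against the median gene it was 1.66, with a lower ratio in 91.1% of all genes tested. *Astl* was among the abundant mRNAs of every library, at ranks 441, 666 and 309 of the genes tested in NP and 30, 337 and 123 in P.

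Of 17 other genes of the cortical granules and of exocytosis, 11 could be tested, with 3 at an unadjusted p under 0.05 in limma (15.8% of all genes). Every P library lay below every NP library for 5 of the 11, against 23.2% of all genes. Only 1 passed the threshold, lower in P, as did 1.8% of all genes. This was *Rab3a*, a GTPase of secretory vesicles, at 36.3, 59.9 and 215 FPKM in NP. In P its level was 2.74 and 1.97 FPKM in replicates 1 and 2, on 1 and 5 recovered reads, with replicate 3 listed at 0. Its fitted log2 ratio, which depends on the pseudocount, was -5.14 (standard error 1.16, limma adjusted p = 0.0416), lower in P in 3 of 3 replicates, where 48.6% of all genes were higher in P in 0 of 3. The call was lost when any single NP library was left out, at a limma adjusted p of 0.289, 0.236 and 0.165 without replicates 1, 2 and 3, while the ratio was -5.68, -5.33 and -4.42. It was also lost with no filter, with a smaller pseudocount, with no trend, and with median-of-ratios scaling and quantile normalization, where the ratio was -4.47 and -4.42. The calcium-binding chaperone *Calr*, the most abundant of the list by its mean over the 6 libraries but not in P alone, had 162, 147.5 and 179.9 FPKM in NP and 237, 52.9 and 56.5 FPKM in P, with overlapping ranges.

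*Plat*, on the plus strand of chromosome 8 from 22757744 to 22782847, was the most abundant of the 6 mRNAs in every library. The AF NP libraries held 2502, 2103 and 1056 FPKM, or 7837, 96305 and 32430 recovered reads, with a mean of 1887 ± 746 (SD, n = 3). The AF P libraries held 1751, 1289 and 823 FPKM, or 726, 3724 and 3229 reads, with a mean of 1288 ± 464 (SD, n = 3). Replicate 3 was the lowest in both fractions, the fractions overlapped, and the values spanned 2.37-fold in NP and 2.13-fold in P. Among the genes tested it ranked 16, 19 and 76 in NP and 18, 8 and 72 in P. On the log2 scale P over NP was -0.53 (standard error 0.50, 95% interval -1.57 to 0.52, limma adjusted p = 0.572), lower in P in 3 of 3 replicates at the deposited scale, where 48.6% of all genes were higher in P in 0 of 3. It was 0.47 and 0.26 after median-of-ratios scaling and quantile normalization, and 0.51 when set against the median gene.

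Maternal mRNAs that are translated on meiotic resumption often carry a cytoplasmic polyadenylation element, a U-rich motif bound by CPEB, near the hexamer that directs polyadenylation. The last 100 bases of the annotated 3′ UTR were searched on the transcript strand for TTTTAT and TTTTAAT, and for the hexamers AATAAA and ATTAAA, of which AATAAA can begin inside TTTTAAT. *Plat* alone of the 6 held TTTTAT or TTTTAAT there, as did 17.7% of 19149 protein-coding genes, and all 6 held AATAAA, as did 63.9%. In the last 200 bases *Plat* held TTTTAAT at 2 places and *Cd81* at 1, against 28.3% of 16993 genes with either form. *Cd9*, *Astl*, *Itpr1* and *Rgs2* held neither form in that window. The stretches of 30 bases, all in the 3′ UTR and written 5′ to 3′ on the transcript strand (GRCm38, GENCODE M21), are shown to compare the 2 elements of *Plat* with that of *Cd81* and the hexamer of *Plat* with that of *Itpr1*, with the motifs in capitals.
*Plat* first element, chr8:22782708-22782737: agaactgtatgaTTTTAATaattgatgaat
*Plat* second element, chr8:22782744-22782773: agtatatttataTTTTAATctattttagtt
*Plat* hexamer, chr8:22782792-22782821: ctttgtattatactgtacttaaatAATAAA
*Cd81* element, chr7:143067760-143067789: ttgctcacatctTTTTAATctttgttcctt
*Itpr1* hexamer, chr6:108551066-108551095: gtaaatgcatacctaaaaatatttAATAAA
The elements of *Plat* begin 125 and 89 bases before the annotated end and its hexamer 29 bases before it. That of *Cd81* begins 163 bases before the end, with a hexamer at 35. A match is a description of the letters, not of a working site.

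Of 11 other genes of the plasminogen activator system, 4 could be tested and 0 passed the threshold in limma (1.82% of all genes), with 1 at an unadjusted p under 0.05 (15.8% of all genes). Their median log2 ratio was -1.26. Plasminogen activator of the other type, *Plau*, and 4 further genes were listed at 0 in all 6 libraries. *Serpine2*, an inhibitor of plasminogen activators and the most abundant of the list by its mean over the 6 libraries but not in every library, had 131, 62.6 and 132 FPKM in NP and 41.4, 71.8 and 16.5 FPKM in P. *Plat* was 19.0, 33.6 and 8.01 times as abundant as *Serpine2* in the NP libraries and 42.3, 17.9 and 49.9 times in the P libraries, with overlapping ranges (exact permutation p = 0.3, two-sided), a ratio computed after the values were seen. Granulosa cells can express *Plat* and *Rgs2* as well, and the markers of those cells given above were listed mostly at 0, with *Cyp19a1* the highest at 7.15, 22.5 and 104 FPKM in NP and 15.4 FPKM in AF P replicate 1. Among the NP libraries, *Plat* and *Rgs2* were lowest in replicate 3, where *Cyp19a1* was highest. Among the P libraries, *Plat* was highest in replicate 1, which alone had *Cyp19a1* above 0, and *Rgs2* was highest in replicate 2. *Nr5a2*, the only other of these markers that could be tested, was named after its values were seen. It was highest in replicate 3 of NP, at 26.9 FPKM. In P it was listed at 0 in replicate 1 and was highest in replicate 2, at 5.71 FPKM. The part of such cells in the levels of *Plat* and *Rgs2* was not tested.

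*Itpr1*, on the plus strand of chromosome 6 from 108213118 to 108551109, was the member with the highest log2 ratio of P over NP. The AF NP libraries held 44.4, 42.4 and 26.3 FPKM, or 541, 7563 and 3145 recovered reads, with a mean of 37.7 ± 9.91 (SD, n = 3). The AF P libraries held 34.7, 74.1 and 236.9 FPKM, or 56, 833 and 3615 reads, with a mean of 115.2 ± 107.2 (SD, n = 3). AF P replicates 2 and 3 lay above all NP libraries and replicate 1 lay within them, and AF P replicate 3 held 68.5% of the summed P level. Without it the P mean was 54.4 FPKM. On the log2 scale P over NP was 1.19 (standard error 0.93, 95% interval -0.74 to 3.12, limma adjusted p = 0.503), higher in P in 2 of 3 replicates, and 2.22 when set against the median gene. A lower ratio was found for 96.7% of all genes tested. Without AF P replicate 3 the ratio was 0.46, and it stayed above 0 under every alternative run.

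*Rgs2*, on the minus strand of chromosome 1 from 143999338 to 144004161, was at moderate levels in both fractions. The AF NP libraries held 92.4, 82.5 and 33.1 FPKM, or 415, 5414 and 1458 recovered reads, with a mean of 69.4 ± 31.8 (SD, n = 3). The AF P libraries held 35.3, 59.7 and 22.8 FPKM, or 21, 247 and 128 reads, with a mean of 39.3 ± 18.7 (SD, n = 3). The fractions overlapped, and NP replicate 3 lay below P replicates 1 and 2. On the log2 scale P over NP was -0.78 (standard error 0.92, 95% interval -2.69 to 1.13, limma adjusted p = 0.647). It was lower in P in 3 of 3 replicates at the deposited scale, where 48.6% of all genes were higher in P in 0 of 3. The ratio was 0.20 and 0.28 after median-of-ratios scaling and quantile normalization. Set against the median gene it was 0.25.

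Of 31 other genes of calcium release, entry and decoding, 24 could be tested and 0 passed the threshold in limma (1.82% of all genes), with 2 at an unadjusted p under 0.05, a share below the 15.8% of all genes. Their median log2 ratio was -0.99. *Wee2*, a kinase that holds CDK1 in check as the egg exits meiosis, was the most abundant by its mean over the 6 libraries but not in P alone, at 357, 390 and 457 FPKM in NP and 159, 168 and 143 FPKM in P. The P libraries of *Wee2* all lay below the NP libraries, which held for 23.2% of all genes and for 2 of the 24 tested genes of this list. The genes at an unadjusted p under 0.05 were *Orai1* and *Calm2*, both named after their values were seen. *Orai1*, a calcium channel of the plasma membrane, had 141.5, 156.5 and 633.8 FPKM in NP and 13.3, 24.9 and 65.1 FPKM in P. It was the other gene of the list with every P library below every NP library. Its log2 ratio was -3.06 (standard error 0.90, limma adjusted p = 0.113). Of the 6 fits with a library left out, the ratio ranged from -3.65 to -2.37, and only that without replicate 3 of P passed the threshold (limma adjusted p = 0.0353). Without P replicates 1 and 2 the limma adjusted p was 0.204 and 0.192, and without NP replicates 1, 2 and 3 it was 0.393, 0.343 and 0.196. With the replicate number as a block and all libraries kept, *Orai1* also passed (limma adjusted p = 0.0429). Also named after their values were seen, the calmodulin gene *Calm2* and the cation channel gene *Trpm7* were the genes of this list in which every P library lay above every NP library, as in 0.633% of all genes. *Calm2* had 56.7, 40.4 and 7.36 FPKM in NP and 87.4, 215 and 94.2 FPKM in P, with a log2 ratio of 2.17 (standard error 0.95, limma adjusted p = 0.282) that was 1.32 without NP replicate 3. *Trpm7* had 1.07, 0.845 and 0.0291 FPKM in NP and 1.08, 2.94 and 15.9 FPKM in P, and the closest libraries, both replicate 1, were nearly equal, at 15 recovered reads in NP and 2 in P, so its separation lies within counting error.

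The other inositol trisphosphate receptor genes, also named after their values were seen, were lower than *Itpr1* in every library. *Itpr2* had 14.6, 11.6 and 3.83 FPKM in NP and 2.26, 1.43 and 7.42 FPKM in P, where it rested on 5, 22 and 155 recovered reads. *Itpr3* was at 0.989, 3.94 and 0.358 FPKM in NP, at 0.682 FPKM in replicate 2 of P, and listed at 0 for the rest of P. *Itpr1* was 3.04, 3.65 and 6.88 times as abundant as *Itpr2* in the NP libraries and 15.3, 51.8 and 31.9 times in the P libraries. The ranges of this ratio did not overlap (exact permutation p = 0.1, two-sided, the smallest that 3 libraries against 3 can give). As a difference in log2(FPKM + 1), *Itpr1* was separated in this direction from 41.8% of all genes tested. A ratio inside one library does not depend on how libraries are scaled, but the pair was chosen on these values.

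Of 24 other genes of G protein and RGS signalling, 17 could be tested and 0 passed the threshold in limma (1.82% of all genes), with 3 at an unadjusted p under 0.05 (15.8% of all genes). Their median log2 ratio was -0.91. The inhibitory G protein subunit *Gnai2*, the most abundant by its mean over the 6 libraries but not in any single P library, had 51.2, 79.8 and 146 FPKM in NP and 30.8, 37.0 and 58.1 FPKM in P. The ranges of *Rgs2* and *Gnai2* overlapped in both fractions. Of the other RGS genes, *Rgs1*, *Rgs4*, *Rgs5*, *Rgs14*, *Rgs16* and *Rgs18* were listed at 0 in all 6 libraries, while *Rgs3*, *Rgs7*, *Rgs10*, *Rgs12*, *Rgs17* and *Rgs19* had values above 0. The most abundant of these by its mean was *Rgs10*, named after its values were seen, at 24.6, 62.0 and 50.5 FPKM in NP. In P it was listed at 0 in replicate 1 and had 17.4 and 96.6 FPKM in replicates 2 and 3, so its range overlapped that of *Rgs2* in both fractions.

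Across the members, 0 of the 5 that could be tested passed the threshold of 0.1 in limma, where 1.82% of all genes passed, 0.0189% as higher in P. Of the 192 genes that passed, 2 were higher and 190 lower in P at the deposited scale, against 2 and 1 after median-of-ratios scaling and 2 and 2 after quantile normalization. An unadjusted p under 0.05 was found for 0 of the 5 in limma and for 15.8% of all genes. That share holds at the deposited scale, with 1669 of 10578 genes. It was 804 genes after median-of-ratios scaling and 794 after quantile normalization. Every P library lay above every NP library in FPKM for 0 of the 5, against 0.633% of all genes, and below for 0 of the 5, against 23.2% of all genes. Of the 5, 2 (*Astl* and *Itpr1*) had a log2 ratio above 0 and 3 (*Cd9*, *Plat* and *Rgs2*) below 0, and 19.9% of all genes were above 0. The median over the 5 was -0.53. The exact permutation test of each gene alone gave p = 0.4 for *Cd9*, 0.6 for *Astl*, 0.4 for *Plat*, 0.3 for *Itpr1* and 0.3 for *Rgs2*, where 0.1 is the smallest possible. All 5 intervals hold 0 and reach beyond a log2 ratio of 0.5 in size, so these libraries do not show that any of the 5 was alike in P and NP.

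**Figure D2:**
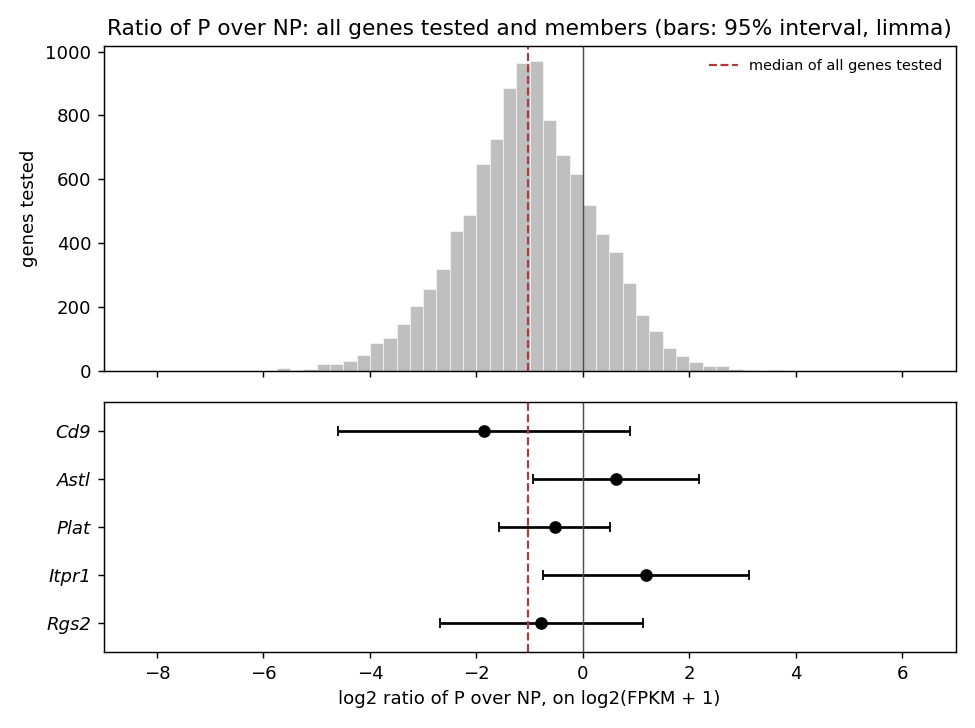
Log2 ratio of P over NP for the 10578 genes tested (top, number of genes per bin of 0.25) and for the 5 members that could be tested (bottom, points with 95% intervals from limma). The dashed line is the median of all genes, -1.03; *Itpr1* and *Astl* lie to its right at 1.19 and 0.63, *Cd9* to its left at -1.86, and all 5 intervals cross 0.

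Since P libraries had lower values for most genes, the position of each mRNA within its own library was also compared, as its percentile among the genes tested, a measure added after the data had been seen. *Itpr1* was at percentiles 77.9, 76.5 and 75.9 in NP and 84.4, 94.1 and 97.0 in P. It was the only 1 of the 5 in which every P library lay above every NP library, which held for 8.55% of all genes, and the reverse for 7.82% (exact permutation p = 0.1, the smallest possible). *Astl* was at 95.8, 93.7 and 97.1 in NP and 99.7, 96.8 and 98.8 in P, an overlap of a single library on each side. *Plat* stayed at 99.3 or above throughout. *Rgs2* was at 87.8, 86.0 and 78.5 in NP and 84.6, 92.4 and 81.1 in P, and *Cd9* at 81.7, 69.9 and 57.5 in NP and 21.1, 55.6 and 86.4 in P. The 21.1 of *Cd9* is the rank shared by all genes listed at 0 in AF P replicate 1, not a measured position. Percentiles of detected genes can also depend on how many genes a library lists at 0, which was not tested.

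**Figure D3:**
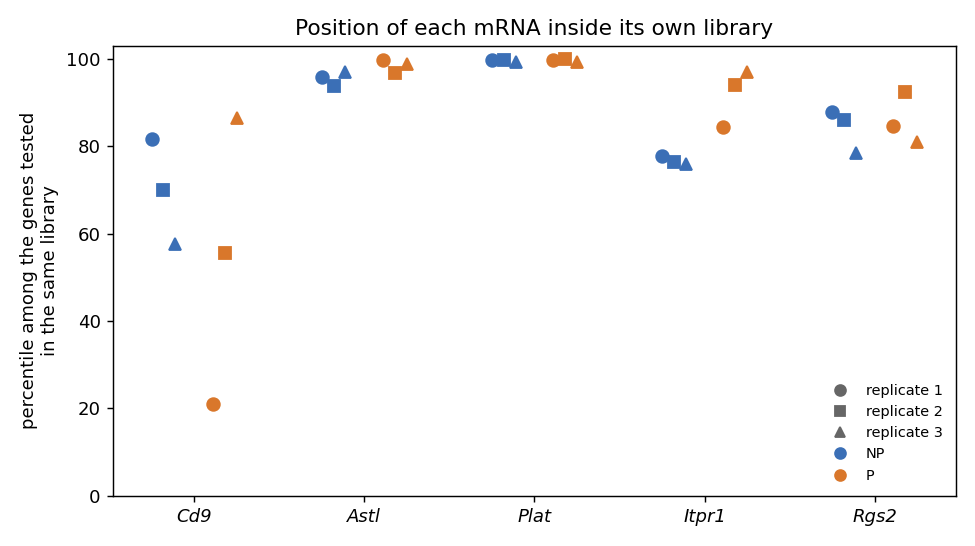
Percentile of each mRNA among the genes tested in the same library, for NP (blue) and P (orange), with 1 symbol per replicate. The 3 P values of *Itpr1*, 84.4 to 97.0, all lie above its NP values of 75.9 to 77.9, while those of *Cd9* run from 21.1, the shared rank of genes listed at 0, to 86.4.

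Members of the same role were then compared inside each library, over 3 pairs. *Itpr1* minus *Rgs2* in log2(FPKM + 1) was -1.04, -0.94 and -0.32 in NP and -0.025, 0.31 and 3.32 in P, with no overlap. The P mean was 1.97 above the NP mean (exact permutation p = 0.1, the smallest possible, and 0.3 after Benjamini-Hochberg adjustment over the 3 pairs). It was 0.91 without AF P replicate 3. *Plat* minus *Astl* was 3.28, 3.46 and 1.43 in NP and 0.57, 3.44 and 0.70 in P, a difference of the means of -1.15 (exact permutation p = 0.3, adjusted 0.4), which ranged from -2.09 to -0.65 with a library left out. *Cd81* minus *Cd9* had means of -4.24 in NP and -2.27 in P (exact permutation p = 0.4, adjusted 0.4), and its P values include the library in which both were listed at 0. With a library left out, the difference of these means ranged from 0.84 to 3.51. With 3 libraries against 3, no pair could pass a threshold of 0.1 after adjustment. The same difference was taken between each member and every other gene tested, as a measure on which the scaling between libraries has little bearing. *Itpr1* minus the other gene was higher in every P library than in every NP library for 41.8% of genes and lower for 0.0945%. For *Astl* these shares were 13.1% and 0.113%, and for *Plat* 12.0% and 2.47%. For *Rgs2* they were 9.08% and 3.22%, and for *Cd9* 0.189% and 4.07%. The separation of *Itpr1* from *Rgs2* was one that *Itpr1* also showed from these 41.8% of genes. Many genes compared were listed at 0 in a P library, as only 44.0% were above 0 in all of them. The part of depth in these shares was not tested.

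**Figure D4:**
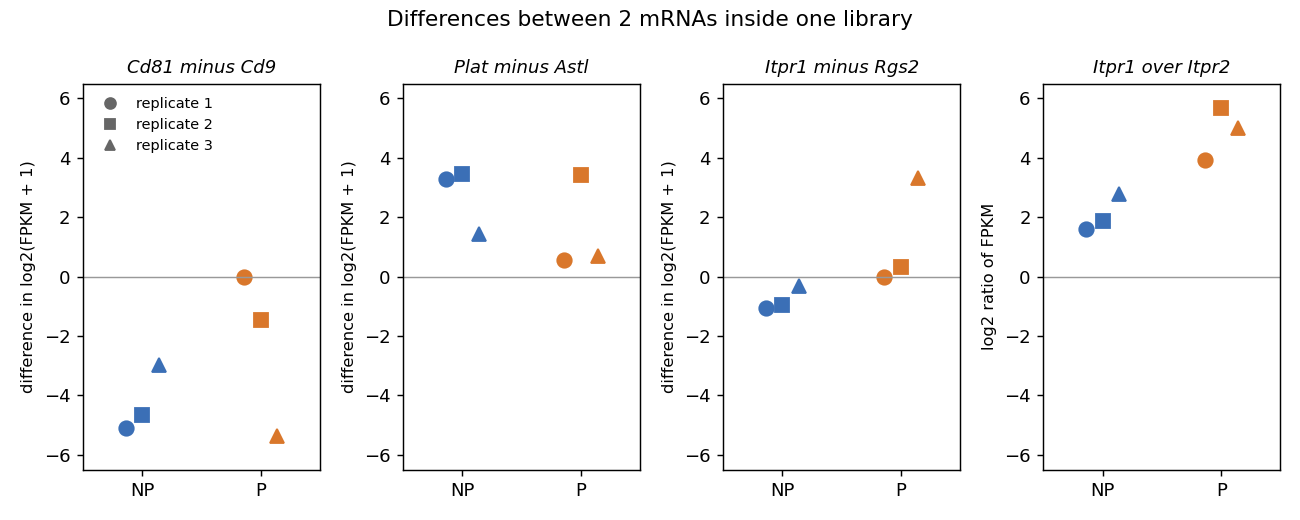
Difference between 2 mRNAs within each library, in log2(FPKM + 1) for the first 3 panels and as the log2 ratio of FPKM for *Itpr1* over *Itpr2*, for NP (blue) and P (orange). *Itpr1* minus *Rgs2* lies between -1.04 and -0.32 in NP and between -0.025 and 3.32 in P, while *Cd81* minus *Cd9* and *Plat* minus *Astl* overlap.

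The mRNAs with the most similar profile to each member were found by the root mean square difference of log2(FPKM + 1) over the 6 libraries, after each gene was centred on its own mean. For *Cd9* these were *Eif3i* at 0.26 and *Dnajc15* at 0.32, where the median over 10577 genes was 2.04. For *Astl* they were *2010107E04Rik* at 0.35 and *Ssna1* at 0.36, with a median of 1.84. For *Plat* they were *Ermp1* at 0.10 and *Ccdc6* at 0.16, with a median of 1.15. For *Itpr1* they were *Top2a* at 0.21 and *Nacc2* at 0.22, with a median of 1.77, and for *Rgs2* *Rhbdf2* at 0.15 and *Psmc4* at 0.17, with a median of 1.14. *Top2a* lay at only 0.210 to 0.901 FPKM in NP and 0.677 to 6.87 FPKM in P, where the added 1 shrinks differences. No member was among the nearest mRNAs of another.

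**Figure D5:**
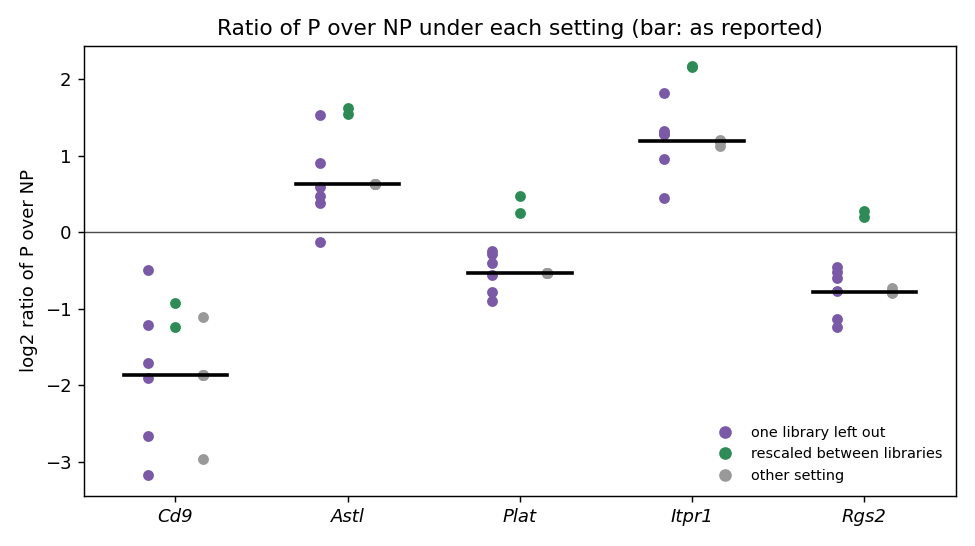
Log2 ratio of P over NP for the 5 members under every alternative: with 1 library left out (purple), with libraries rescaled (green) and other settings (grey), beside the value as reported (black bar). *Itpr1* stays above 0 and *Cd9* below 0 throughout, *Plat* and *Rgs2* move above 0 only when libraries are rescaled, and *Astl* falls to -0.13 without AF P replicate 1.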

How the data were processed

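Oocyte lysates were split on sucrose gradients, rRNA was depleted, cDNA was amplified by whole transcriptome amplification and Nextera libraries were sequenced. Per the submitters' processing notes, the authors used Trim Galore 0.4.1, FastQC 0.11.5 and HISAT2 2.0.5 with the GRCm38 build. By the study's methods, the authors deposited FPKM per gene and library from Seqmonk. The sources used here do not give the annotation, the strand setting or filters on reads. The authors also deposited the mean FPKM of each fraction, which was not used.

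Of 25965 rows, 58 symbols were duplicated, and the row with the highest mean was kept. Depth was recovered as the step at which most low values become whole numbers of reads (within 0.02 reads, up to 10 reads) at GENCODE M21 exon lengths, found for 22557 genes, and between 57.9% and 65.2% of the low values per library were whole. Reads of each member were taken at the smallest exon length from 200 to 20000 bases at which all its values were whole within 0.02. This length was unique among its neighbours for all but *Cd81*, where 13 neighbouring lengths gave the same reads. It equals the GENCODE length for *Cd9*, *Astl* and *Rgs2* but is 2531 against 6241 bases for *Plat*, 9848 against 18319 for *Itpr1* and 2270 against 2879 for *Cd81*, and the reads of these genes scale with it, their limits inversely. Recovered reads over all exons summed to 1.10 to 2.24 times the recovered depth, and it remains unclear what a single step stands for. A value listed at 0 was given the limit of 3 reads.

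The fractions were tested against each other in R 4.3.3 with limma 3.58.1, two-sided and with a trend, for 10578 genes whose mean FPKM in P or in NP was above 1. Values were taken as log2(FPKM + 1), which makes the ratios of low genes too small. P-values were adjusted by Benjamini-Hochberg over all of them, with a threshold of 0.1. The procedure was tested on simulated data. Single values were compared by exact permutation tests over libraries. Libraries were grouped by their titles. The 3′ UTR searched was that of the transcript with the longest coding sequence per gene. Plots were made with matplotlib 3.10.9 in Python 3.11.15.

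The members were picked by name and function, but they, the gene lists and the tests were chosen with earlier results of these data known. Named genes are the members, list genes past the threshold, the most abundant gene of each list, and the 2 most similar profiles per member. *Izumo1r*, *Itpr2*, *Itpr3*, *Calm2*, *Trpm7*, *Orai1*, *Rgs10*, *Nr5a2* and list genes named only as listed at or above 0 were picked after their values were seen. The alternatives changed the pseudocount, the filter, the scaling or the trend, or used a replicate block, a threshold of 0.05, or left out each library in turn. The 2 ratios to *Itpr2* and *Serpine2* and the percentiles within libraries were added after the data had been seen.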

Additional observations from a re-analysis of the deposited data

How the results depend on the processing

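No member passed the threshold under any alternative, as their adjusted p from limma stayed between 0.266 and 0.944. Of 70 log2 ratios of members under alternatives, 65 kept their direction and 5 reversed: *Astl* to -0.13 without AF P replicate 1, *Plat* to 0.47 and *Rgs2* to 0.20 under median-of-ratios scaling, and *Plat* to 0.26 and *Rgs2* to 0.28 under quantile normalization. These scalings move the median of all genes from -1.03 to -0.43 and -0.22. With a library left out, ratios ranged from -3.17 to -0.50 for *Cd9*, -0.13 to 1.53 for *Astl*, -0.90 to -0.24 for *Plat*, 0.46 to 1.82 for *Itpr1* and -1.24 to -0.45 for *Rgs2*. Among the list genes and *Cyp19a1* given with their values, *Calr* reversed to 0.13 and 0.14 under these scalings and *Tspan14* to -0.17 and -0.24 without NP replicate 3 and P replicate 3 (range -0.24 to 0.54 with a library left out), and *Rab3a* fell short under 8 alternatives. *Orai1* passed with the replicate block and without P replicate 3, and *Cyp19a1* without P replicate 1, at a limma adjusted p of 0.0429, 0.0353 and 0.0959. The similar profiles were not recomputed under alternatives. *Cd81* could be tested only with no filter.

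The count of genes past the threshold, 192 of 10578, was 65 at a threshold of 0.05, 69 with a pseudocount of 0.1, 0 with no filter (1759 at an unadjusted p under 0.05), 3 under median-of-ratios scaling (2 higher, 1 lower in P), 4 under quantile normalization (2 and 2) and 15 without trend, and ranged from 1 to 331 with a library left out. The cause was not tested. With the replicate block it was 668, and no member was called. No source says in words that equal numbers mark one gradient. Deviations of same-numbered libraries correlated across genes at 0.063, 0.099 and 0.116, and 6 of 6 libraries correlated best with their own number, a hint from the data only. Members with TTTTAT or TTTTAAT near the end were 2 in the last 200 bases and 1 in the last 100. Values at 0 in AF P replicate 1 are limited by its depth.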
